A study of Homo sapiens with 6 samples.

Results

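The lineage markers were 9 microRNAs (miRNAs) known from cells other than hepatocytes, measured here in a liver tumour line. hsa-miR-126-3p is a marker of endothelium. hsa-miR-143-3p, hsa-miR-145-5p, hsa-miR-214-3p and hsa-miR-199a-5p mark fibroblasts, smooth muscle and other stroma. hsa-miR-451a marks erythroid cells, and hsa-miR-223-3p, hsa-miR-142-3p and hsa-miR-150-5p mark myeloid and lymphoid cells. The members came from a list of names, and each was taken as the array row that carries its name. All 9 were found, each with 1 spot, among 2019 human miRNA probes. Measured values of the members were not part of the rule.

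All RNA came from HuH7, an established line from a human hepatocellular carcinoma, grown alone in MEM with fetal bovine serum. Control cells received no cisplatin, and treated cells received cisplatin, a DNA-crosslinking platinum drug, at 1 µg/ml for 24 h. Each group had 3 samples and 1 array per sample, read in 1 colour. Whether the numbered samples were separate cultures is not in the labels, so the p-values describe the spread between these samples only, which may be technical. A single line limits the comparison to that line, and 6 arrays limit its precision.

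A mature miRNA loads into an Argonaute protein and represses messenger RNAs that pair with its seed, the bases near its 5′ end. Many miRNAs are made in a few lineages: miR-126 is processed from an intron of the endothelial gene EGFL7, miR-143 and miR-145 come from 1 transcript of smooth muscle and fibroblasts, miR-451a matures without Dicer in red cell precursors, and miR-223, miR-142 and miR-150 belong to blood cells. In whole tissue such miRNAs are read as signs of vessels, stroma or blood, which a line grown alone does not contain as separate cell types.

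The mature sequences show what each probe is named for, and that no pair of the printed members shares a seed. They are from RefSeq (GRCh38.p14), which had an entry for 7 of the 9 members, and are given 5′ to 3′ with the seed, bases 2 to 8, in capitals. The entries for hsa-miR-451a and hsa-miR-150-5p were missing.
hsa-miR-126-3p: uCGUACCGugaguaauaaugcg
hsa-miR-143-3p: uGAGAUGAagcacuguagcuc
hsa-miR-145-5p: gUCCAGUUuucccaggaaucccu
hsa-miR-214-3p: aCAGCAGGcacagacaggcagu
hsa-miR-199a-5p: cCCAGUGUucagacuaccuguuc
hsa-miR-223-3p: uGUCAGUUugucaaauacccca
hsa-miR-142-3p: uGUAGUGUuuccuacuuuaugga
The 7 sequences have 7 distinct seeds, are 21 to 23 nt long and range from 34.8% to 59.1% GC. The seed of hsa-miR-143-3p also occurs in hsa-miR-4770 and hsa-miR-6088, and that of hsa-miR-214-3p in hsa-miR-3619-5p and hsa-miR-761. For the other 5, the RefSeq entries used held no further human miRNA with the same seed. These entries were incomplete and also lacked hsa-miR-199b-5p, so they cannot show that a seed is unique.

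By position, the stromal members form 2 pairs of neighbours. hsa-miR-143-3p lies at chr5:149428978-149428998 and hsa-miR-145-5p at chr5:149430661-149430683, both on the plus strand, and their hairpins lie 1622 bases apart within the noncoding gene CARMN. hsa-miR-214-3p lies at chr1:172138816-172138837 on the minus strand. Its hairpin is 5627 bases from MIR199A2, a hairpin for hsa-miR-199a-5p (chr1:172144592-172144614, minus strand), and both are within DNM3 and its antisense transcript DNM3OS. A further hairpin for hsa-miR-199a-5p, MIR199A1, lies in DNM2, with the mature sequence at chr19:10817469-10817491 on the minus strand. hsa-miR-126-3p lies within EGFL7 at chr9:136670653-136670674 on the plus strand. hsa-miR-223-3p lies within MIR223HG at chrX:66018937-66018958 on the plus strand, and hsa-miR-142-3p within MIR142HG at chr17:58331245-58331267 on the minus strand.

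Signal was the median pixel intensity of a spot, in linear scanner units, and its floor was taken from the 925 spots named BLANK on each array. The limit used here for a single array was the mean plus 2 SD of these spots. It was 220.1, 239.8 and 228 on control arrays 1, 2 and 3, and 209, 247 and 227 on cisplatin arrays 1, 2 and 3. Of the human probes, 16.3% to 36.6% lay above it per array, with the lowest share on cisplatin array 2, where the blank spots varied most (SD 18.0, against 10.6 to 13.4 on the others). Each array also carried 24 spots named Negative Control, with means of 197 to 225, and 90 named No Probe, with means of 200.1 to 233, both above the mean of the BLANK spots of the same array. For comparison, 4 liver markers were read. Their list was chosen with earlier results of these data known, so they are no independent check of the labelled tissue. hsa-miR-122-5p, the main hepatocyte miRNA, had 23.9 times the BLANK level, hsa-miR-194-5p 9.30 times, hsa-miR-192-5p 8.33 times and hsa-miR-148a-3p 2.05 times, and all 4 were above the limit on 6 of 6 arrays.

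Of the 9 lineage markers, hsa-miR-126-3p, hsa-miR-143-3p and hsa-miR-145-5p lay above the BLANK limit on all 6 arrays, and the other 6 did not. Over all human probes the share above the limit on all 6 arrays was 12.0%. Counted per member and array, 35 of 54 readings lay above the limit, against 29.9% of readings for all human probes. Per array, 3 to 7 of the 9 were above, with the lowest count on cisplatin array 2. The members above the limit on every array are an endothelial marker and a pair of neighbouring stromal markers, and none of the blood markers was among them. The number depended on how the limit was set. With pixel means in place of medians, 0 of 9 were above on all 6 arrays (2.67% of all human probes). There a few very bright BLANK spots raised the SD to as much as 299.8. With 5% of these pixel-mean BLANK values trimmed at each end the count was 4 (15.8% of all human probes), the fourth being hsa-miR-142-3p. With medians kept and the limit set from the No Probe spots, the count was 2, as for 187 of 2019 human probes. The trimmed pixel-mean limit and the No Probe limit were not planned in advance.

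**Figure D1:**
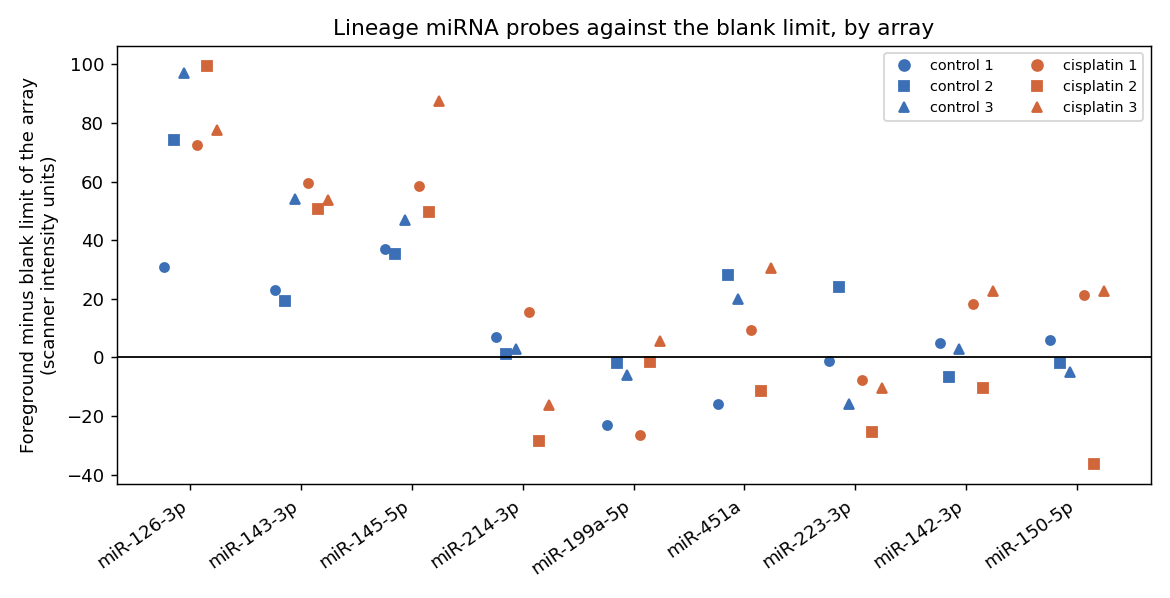
Foreground signal of each of the 9 members on each array, as the difference from that array's BLANK limit (mean plus 2 SD of 925 spots), in linear scanner units, 1 point per array, with control and cisplatin arrays marked. hsa-miR-126-3p, hsa-miR-143-3p and hsa-miR-145-5p lie above the limit on all 6 arrays, and the other members have points on both sides of it.

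hsa-miR-126-3p, which tunes VEGF signalling in endothelial cells, read 251, 314 and 325 on control arrays 1, 2 and 3. It read 281, 346 and 305 on cisplatin arrays 1, 2 and 3. The lowest reading was control array 1 and the highest cisplatin array 2, and the groups overlapped. On each array at least 99.9% of the BLANK spots were dimmer than this probe. Its mean level was 1.50 times the BLANK level (95% interval 1.42 to 1.58, log2 0.58 ± 0.038 SE, 6 arrays, limma adjusted p = 1.8e-10) and 1.41 times the Negative Control level (limma adjusted p = 3.7e-08).

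The other arm of the same hairpin, hsa-miR-126-5p, was above the limit on 1 of 6 arrays. Its level was 1.09 times the BLANK level (limma adjusted p = 0.0036) and 1.03 times the Negative Control level (limma adjusted p = 0.52). Of the endothelial arms, 1 of 2 passed against Negative Control, and the levels of the arms were not set against each other, since each has a probe of its own.

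hsa-miR-143-3p, a regulator of smooth muscle differentiation, read 243, 259 and 282 on control arrays and 268, 297 and 281 on cisplatin arrays. The groups overlapped through control array 3, which read above cisplatin arrays 1 and 3. Its level was 1.34 times the BLANK level (95% interval 1.28 to 1.41, log2 0.43 ± 0.033 SE, limma adjusted p = 2.4e-09). Against the Negative Control spots it was 1.26 times higher (limma adjusted p = 4.3e-07). With the limit set from the No Probe spots, it was above on 4 of 6 arrays.

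hsa-miR-145-5p, transcribed with miR-143 and likewise known from contractile smooth muscle, read 257, 275 and 275 on control arrays. On cisplatin arrays it read 267, 296 and 315. Cisplatin arrays 2 and 3 read above every control array, while cisplatin array 1 fell within the control range. The level was 1.39 times BLANK (95% interval 1.33 to 1.45, log2 0.47 ± 0.031 SE, limma adjusted p = 2.3e-10) and 1.31 times Negative Control (limma adjusted p = 2.8e-08). Of the opposite arms of this gene pair, hsa-miR-143-5p was above the limit on 3 of 6 arrays at 1.12 times BLANK and hsa-miR-145-3p on 0 of 6 at 1.07 times BLANK.

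hsa-miR-214-3p, made in mesenchyme and fibroblasts, lay closer to the floor. It read 227, 241 and 231 on control arrays, all above their limits, and 224, 218 and 211 on cisplatin arrays, of which only array 1 was above. As scanned, every cisplatin reading was below every control reading. It entered the treatment test through its control arrays alone, the group where it read higher, so nothing is read from this separation, which 13.0% of all tested probes showed. Set against the BLANK mean of the same array, the readings overlapped: 31.0, 27.9 and 24.2 units above it in control and 40.1, 7.42 and 6.11 in cisplatin arrays. The level was 1.12 times BLANK (limma adjusted p = 0.0014) and did not pass against Negative Control (log2 0.070, 95% interval -0.0039 to 0.14, limma adjusted p = 0.20).

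hsa-miR-199a-5p, the partner of miR-214 in DNM3OS, read 197, 238 and 222 on control arrays and 182, 245 and 233 on cisplatin arrays. It was above the limit on cisplatin array 3 alone, so 0 of 3 control and 1 of 3 cisplatin arrays measured it. On arrays 1 of both groups it read at the middle of the BLANK spots, with 50.7% and 43.4% of them dimmer. Its level was 1.08 times BLANK (limma adjusted p = 0.013), a call lost when control array 2, cisplatin array 2 or cisplatin array 3 was left out (limma adjusted p = 0.056, 0.061 and 0.051). The probe shared by hsa-miR-199a-3p and hsa-miR-199b-3p had 0.992 times the BLANK level, hsa-miR-199b-5p 1.06 times and hsa-miR-214-5p 1.02 times, each above the limit on 0 of 6 arrays.

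hsa-miR-451a, needed for late red cell maturation, read 204, 268 and 248 on control arrays and 218, 235 and 258 on cisplatin arrays. It was above the limit on 2 of 3 arrays in each group, with control array 1 and cisplatin array 2 below. Its level was 1.18 times BLANK (limma adjusted p = 5.5e-05) and 1.11 times Negative Control (95% interval of the log2 level 0.062 to 0.23, limma adjusted p = 0.014). hsa-miR-451b had 1.07 times the BLANK level and was above the limit on 0 of 6 arrays.

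hsa-miR-223-3p, a miRNA of granulocytes and monocytes, read 219, 264 and 212 on control arrays and 201, 221 and 217 on cisplatin arrays. The reading of 264 on control array 2 was its only one above a limit, so 1 of 3 control and 0 of 3 cisplatin arrays measured it. Its level was 1.10 times BLANK (limma adjusted p = 0.0042) and 1.03 times Negative Control (limma adjusted p = 0.43). hsa-miR-223-5p was above the limit on 1 of 6 arrays at 1.05 times BLANK.

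hsa-miR-142-3p, found across blood lineages, read 225, 233 and 231 on control arrays. On cisplatin arrays it read 227, 236 and 250. It was above the limit on 4 of 6 arrays, and array 2 of each group fell below. Its level was 1.16 times BLANK (limma adjusted p = 2.9e-05) and 1.09 times Negative Control (limma adjusted p = 0.0084). hsa-miR-142-5p had 1.06 times the BLANK level and was above on 0 of 6 arrays.

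hsa-miR-150-5p, a miRNA of mature lymphocytes, read 226, 238 and 223 on control arrays and 230, 210 and 250 on cisplatin arrays. Cisplatin arrays 1 and 3 and control array 1 were above their limits, and on cisplatin array 2 the probe read at the middle of the BLANK spots, 49.6% of which were dimmer. Its level was 1.14 times BLANK (limma adjusted p = 0.00092) and 1.07 times Negative Control (limma adjusted p = 0.11). hsa-miR-150-3p was above the limit on 2 of 6 arrays at 1.14 times BLANK.

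Against the BLANK spots all 9 members passed limma at an adjusted p of 0.05, but so did 67.6% of all human probes, whose median log2 level over BLANK was 0.10, against 0.21 for the members. Against the Negative Control spots 5 of 9 passed: hsa-miR-126-3p, hsa-miR-143-3p, hsa-miR-145-5p, hsa-miR-451a and hsa-miR-142-3p. The share of all human probes was then 17.3%. Against the No Probe spots 4 of 9 passed, as hsa-miR-142-3p no longer did (limma adjusted p = 0.088), and hsa-miR-451a passed narrowly (limma adjusted p = 0.040). Of all human probes 14.2% passed there. hsa-miR-126-3p, hsa-miR-143-3p and hsa-miR-145-5p kept a log2 level of 0.45, 0.30 and 0.35 over the No Probe spots. What these spots carry is named in the files only by these words.

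**Figure D2:**
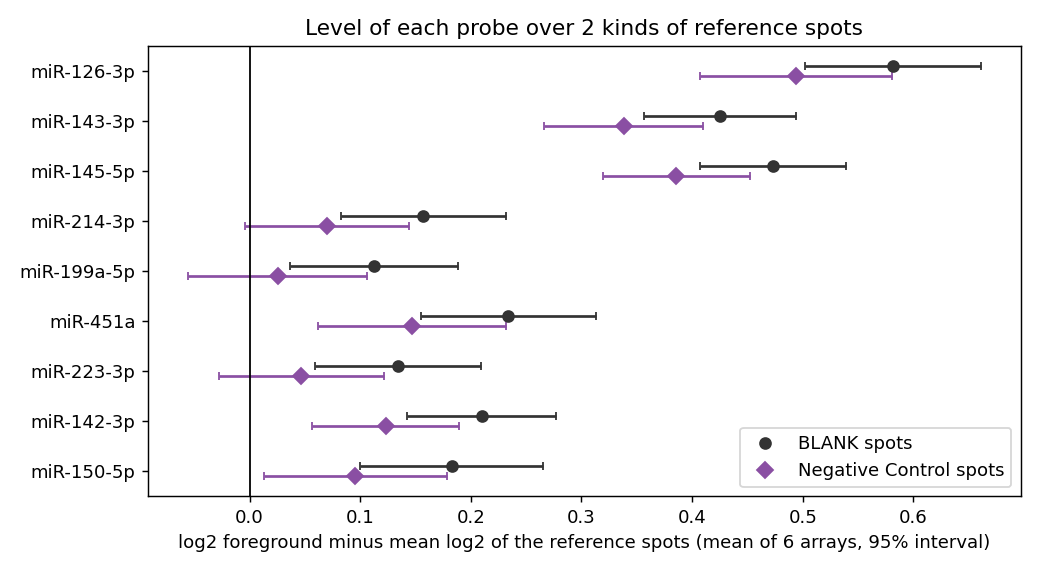
Mean log2 level of each of the 9 members over the BLANK spots and over the Negative Control spots of the same array (6 arrays, bars are 95% intervals from limma, 0 is the level of the spots). All 9 intervals lie above 0 for BLANK, whereas for Negative Control those of hsa-miR-214-3p, hsa-miR-199a-5p and hsa-miR-223-3p reach 0.

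The array held 20 further probes of these lineages: the opposite arms and close relatives named above, 7 miRNAs of skeletal and heart muscle (miR-1, miR-133a, miR-133b, miR-206, miR-208a, miR-208b and miR-499a-5p) and the erythroid miRNAs hsa-miR-144-3p, hsa-miR-144-5p and hsa-miR-486-5p. Of the 20, 0 were above the limit on all 6 arrays, against 12.0% of all human probes. Of their 120 readings 16 were above, against 29.9% of readings for all human probes. Their levels were 0.992 to 1.14 times BLANK. By limma 12 were higher than BLANK (67.6% of all human probes) and 0 higher than Negative Control (17.3% of all human probes). The shared probe of hsa-miR-199a-3p and hsa-miR-199b-3p was lower than Negative Control (log2 -0.098, limma adjusted p = 0.035). The muscle list had 5 of 42 readings above the limit and 3 of 7 probes past BLANK. Among endothelial and stromal probes outside the 9 members, 1 of 6 and 3 of 30 readings were above. For erythroid and leukocyte probes these were 4 of 24 and 3 of 18.

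**Figure D3:**
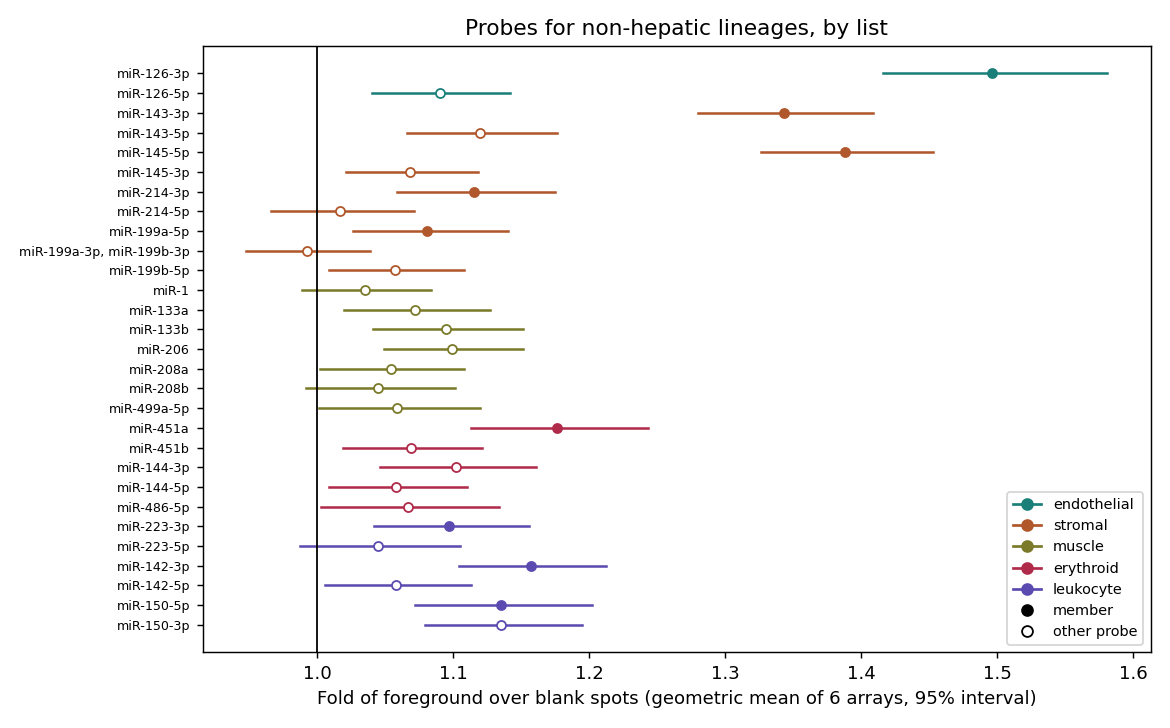
Fold of the foreground over the BLANK spots (geometric mean of 6 arrays, bars are 95% intervals from limma) for each probe of the endothelial, stromal, muscle, erythroid and leukocyte lists, with the 9 members as filled points and the 20 other probes as open points. The open points lie between 0.992 and 1.14, and hsa-miR-126-3p, hsa-miR-143-3p and hsa-miR-145-5p lie at 1.34 to 1.50.

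Treatment was compared after normexp background correction, quantile normalisation and log2 transformation, on which scale the following values and differences are given. The test covered 324 probes above the BLANK limit on all 3 arrays of at least 1 group. 4 of the 9 members were among them: hsa-miR-126-3p, hsa-miR-143-3p, hsa-miR-145-5p and, through its control arrays alone, hsa-miR-214-3p. None of the 4 passed limma at an adjusted p of 0.05, where 1 of 324 probes did (0.309%). At an unadjusted p of 0.05, 0 of 4 passed, against 15.7% of all tested probes. In bulk RNA of a single line, fewer cells that express a miRNA and less of it per cell cannot be told apart.

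hsa-miR-126-3p had normalised values of 7.27, 7.56 and 7.76 in control and 7.54, 7.65 and 7.54 in cisplatin arrays. Control array 1 lay below and control array 3 above all cisplatin arrays. The difference, cisplatin minus control, was 0.046 ± 0.13 (SE, 95% interval -0.28 to 0.37, n = 3 per group, limma adjusted p = 0.93). Without control array 1 it was -0.084, and without control array 3 it was 0.165.

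hsa-miR-143-3p had 6.93, 7.01 and 7.35 in control and 7.37, 7.23 and 7.21 in cisplatin arrays. Control array 3 lay within the cisplatin values, and the other control arrays lay below them. The difference was 0.17 ± 0.12 (SE, 95% interval -0.14 to 0.48, limma adjusted p = 0.62), and 0.091 to 0.30 with 1 array left out, lowest without control array 1 and highest without control array 3. hsa-miR-145-5p had 7.21, 7.23 and 7.25 in control and 7.43, 7.23 and 7.46 in cisplatin arrays, so cisplatin array 2 lay within the narrow control range. Its difference was 0.14 ± 0.074 (SE, 95% interval -0.043 to 0.32, limma adjusted p = 0.45), and 0.096 to 0.21 with 1 array left out.

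hsa-miR-214-3p was the tested member with a negative difference. It entered the test through its control arrays alone, the group where it read higher. That route favours a negative sign, so nothing is read from the sign. hsa-miR-214-3p had 6.81, 6.77 and 6.63 in control and 6.95, 6.44 and 6.45 in cisplatin arrays. Cisplatin array 1 was the highest of all 6 and the other cisplatin arrays the lowest. The difference was -0.13 ± 0.16 (SE, 95% interval -0.51 to 0.26, limma adjusted p = 0.79). It moved to -0.30 without cisplatin array 1 and to -0.036 without cisplatin array 2.

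The 5 untested members had differences from -0.16 (hsa-miR-223-3p) to 0.16 (hsa-miR-142-3p) in a fit without the filter, with SEs of 0.11 to 0.20. That of hsa-miR-223-3p was -0.012 without control array 2, and that of hsa-miR-199a-5p (0.039) turned negative without control array 1, cisplatin array 2 or cisplatin array 3 (-0.042, -0.074 and -0.020). In that fit 0 of 9 members passed limma at an adjusted or an unadjusted p of 0.05. Over the 9 members, 5 differences lay above 0 and 4 below, and their median was 0.039 where that of all human probes was -0.0041. The 4 tested members had a median of 0.093, against -0.012 for all tested probes. The 4 include hsa-miR-214-3p, which entered the test through its control arrays alone. On the normalised scale 0 of 4 tested members had groups that did not overlap, against 18.8% of all tested probes. The 95% intervals of the 4 tested members reached up to between 0.26 and 0.48 and down to between -0.043 and -0.51.

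**Figure D4:**
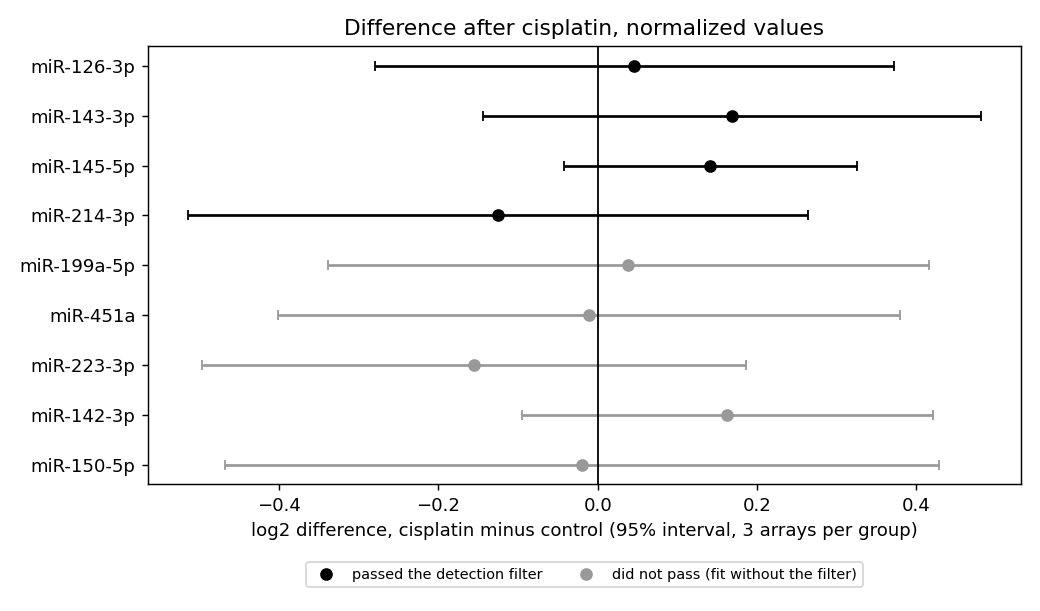
Difference between cisplatin and control in normalised log2 signal for each of the 9 members (point, with the 95% interval from limma, 3 arrays per group), with the 4 members that passed the detection filter in black and the 5 that did not in grey. All 9 intervals include 0.

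The treatment values were also read with each array set only against its own BLANK spots, with neither normexp correction nor quantile normalisation. Neither this scale nor the Spike Control scaling below was planned in advance. Against the BLANK spots hsa-miR-143-3p was 47.0, 45.9 and 75.2 units above the BLANK mean in control and 84.1, 86.4 and 76.1 in cisplatin arrays. hsa-miR-145-5p was 61.0, 61.9 and 68.2 units above it in control and 83.1, 85.4 and 110.1 in cisplatin arrays. On this scale neither miRNA had overlapping groups, so 2 of 4 tested members were separated, against 29.0% of all tested probes. Their log2 differences were 0.15 ± 0.062 and 0.16 ± 0.053 (SE), and neither passed limma (adjusted p = 0.21 and 0.13). On the same scale 73.5% of the 324 probes were higher in cisplatin arrays, with a median of 0.070. Scaled on the Spike Control spots instead, the differences of hsa-miR-126-3p, hsa-miR-143-3p and hsa-miR-145-5p were -0.051, -0.033 and -0.013, where the median of all tested probes was -0.15. From the authors' deposited table they were 0.31, 0.56 and 0.50, with a median of 0.11 over 408 probes.

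The authors' deposited table, which lists a probe on an array only where it exceeds a floor, held hsa-miR-126-3p, hsa-miR-143-3p and hsa-miR-145-5p on all 6 arrays. It held hsa-miR-451a and hsa-miR-142-3p on 5, hsa-miR-214-3p and hsa-miR-150-5p on 4, hsa-miR-199a-5p on 3 and hsa-miR-223-3p on 2. On every array the listed probes were those above a limit from BLANK spots with 5% trimmed at each end. Of all human probes, 296 of 2019 were above that limit on all 6 arrays. Counted as readings, 41 of 54 were above it for the members, against 5296 of 12114 for all human probes. The listing is a further limit on the same readings, not a separate measurement. In the authors' deposited table hsa-miR-145-5p was 61.1, 58.0 and 74.6 in control and 77.8, 85.9 and 112.7 in cisplatin arrays. The highest control value was just below the lowest cisplatin value. These are rescaled values of the same spots, and the share of all listed probes with such a gap was not counted. Nothing is read from this gap. hsa-miR-143-3p was 47.1, 43.1 and 82.3 in control and 78.8, 86.9 and 78.0 in cisplatin arrays of the authors' deposited table, where control array 3 lay within the cisplatin values.

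The probes whose normalised values were most like those of the 3 members above the limit on all arrays were looked up among 242 probes, over 6 arrays, as a description. For hsa-miR-126-3p they were hsa-miR-1469 (r = 0.96), hsa-miR-483-3p (0.91) and hsa-miR-6090 (0.87). For hsa-miR-143-3p they were hsa-let-7a-5p (0.91), hsa-miR-664b-3p (0.89) and hsa-miR-125a-5p (0.84). For hsa-miR-145-5p they were hsa-miR-4758-3p (0.93), hsa-miR-4763-3p (0.89) and hsa-miR-92b-5p (0.88), and hsa-miR-143-3p was not among them. Without the 2 arrays farthest from the median of the member, r was 0.17 to 0.46 for the probes of hsa-miR-126-3p and hsa-miR-143-3p. For those of hsa-miR-145-5p it was -0.85, 0.77 and -0.49 in the same order. Leaving out these arrays narrows the range of the member, which by itself favours a lower r. The step therefore cannot show what the likenesses rest on. Spearman rank correlations over all 6 arrays were 0.43 to 0.89 for these 9 probes.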

How the data were processed

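The 6 samples, 3 control and 3 cisplatin, were of total RNA labelled with Hy5, per the labels. The intensity columns name their channel by a number, not by the dye, and how the channel relates to Hy5 is not given in the sources used here. Each deposited scanner file gives the intensity of every spot on a linear scale, as median and mean over its pixels, with a local background beside it, per the file headers. The authors' deposited table, also of intensity, was compared with the scanner values. It was the foreground median less a trimmed BLANK mean (5% off either end), divided by a separate factor for each array (0.917 to 1.08). The median of the listed probes was 31 on every array.

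Levels were log2 foreground medians minus the mean log2 of the reference spots of the same array, with 1 mean per group, and the mean of the groups was tested against 0 over 2019 probes, of which those past the threshold and above 0 were counted. Treatment was tested after normexp (offset 50, all spots), quantile normalisation over the human probes and log2 transformation, over 324 probes. Both used lmFit and eBayes (limma 3.58.1, R 4.3.3) with Benjamini-Hochberg adjustment at 0.05, tested on simulated data first. The treatment fit had 4 residual and 1.52 prior degrees of freedom. The normexp offset shrinks differences of dim probes. The quantile step moved them both ways. With no normalisation between arrays the difference of hsa-miR-145-5p was larger (0.20, against 0.14) and that of hsa-miR-142-3p smaller (0.145, against 0.163). Figures used matplotlib 3.10.9.

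The members and lists were chosen with earlier results of these data known. Named are the 9 members, the other arms, miR-451b and the close relative miR-199b-5p, further lineage probes above the limit on all 6 arrays, the liver markers and, for members above it on all 6, the 3 probes with the largest r. The remaining lineage probes are named as list members only.

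Samples of equal number deviated together from their group means over the tested probes (r = 0.44, 0.24 and 0.20). The labels' numbers were therefore taken as pairs in an alternative fit with a block. The main tests were unpaired. Control 3 and cisplatin 2 also correlated (0.23), so the numbers are not singled out for replicates 2 and 3. A scanner column headed Cell, read here as a slide position, held 3, 1 and 3 for control arrays and 4, 2 and 4 for cisplatin arrays. The headers do not say what it means. No value held both groups, so it cannot be told apart from treatment. Alternatives covered background correction, normalisation, filters, limits, reference spots, pixel means, the block and each array left out.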

Additional observations from a re-analysis of the deposited data

How the results depend on the processing

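No member passed the treatment test (limma, adjusted p of 0.05) in the settings that tested members, 3 to 9 of them, while with pixel means 0 members could be tested. With the replicate number fitted as a block there were 0 tested members past the threshold. 9 of 9 members were above the BLANK spots, as were 1481 of 2019 human probes. No call of a member changed, while the treatment count over all 324 probes went from 1 to 0. At an unadjusted p of 0.05, 3 of 7 tested members passed without cisplatin replicate 2 (18.5% of all tested probes). They were hsa-miR-145-5p, hsa-miR-142-3p and hsa-miR-150-5p, the latter 2 tested there through the cisplatin arrays alone, where they read higher. Without cisplatin replicate 1, 1 of 4 passed (15.1%), hsa-miR-214-3p, tested through its control arrays alone. Such routes favour a difference, so nothing is read from the calls of members tested that way. Without control replicate 3, 1 of 4 passed (15.0%), and with arrays centred on the BLANK spots 2 of 4 did (22.2%). Directions turned for hsa-miR-214-3p with the authors' deposited table (0.43, where only 1 cisplatin array is listed and the dimmer ones are not), for hsa-miR-126-3p without control replicate 1 (its differences with each array left out ranged from -0.084 to 0.165), and under Spike Control scaling for hsa-miR-126-3p (-0.051), hsa-miR-143-3p (-0.033) and hsa-miR-145-5p (-0.013). That scaling moved the median of all tested probes to -0.15, and the authors' table, over 408 probes, to 0.11. The 5 untested members kept their sign in 9 (hsa-miR-451a) to 15 of up to 16 settings. The cause of these changes was not tested. Reference spots other than BLANK, chosen after seeing the data, gave 5 members above Negative Control and 4 above No Probe, where the level of hsa-miR-199a-5p was -0.015. Centring on the BLANK spots, Spike Control scaling and the trimmed pixel-mean limit were not planned in advance either. Pixel means gave 0 members above the limit on all 6 arrays (2.67% of all human probes) and 16 of 54 readings, against 2166 of 12114 for all human probes. No Probe limits gave 22 of 54 readings, against 1454 of 12114. With 1 array left out, 8 to 9 members were above BLANK, as were 1123 to 1232 of 2019 human probes. On all arrays left, 3 members were above the limit, as were 244 to 264 human probes. The 6 members not above the limit on every array read -1.93 to 54.9 scanner units from the BLANK mean.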
